A study of Mus musculus with 4 samples.

Results

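H4K16ac domains that were 1 unbroken island in one genotype and lay in 2 or more pieces in the other were compared between Sirt1-deficient and wild-type mouse liver. They were found by merging the island lists of both genotypes wherever islands overlapped by at least 1 bp and keeping merged regions spanning less than 10000 bp, with exactly 1 island in one list and 2 or more in the other. This gave 1671 regions out of 36418 merged regions and 13754 that were under the span limit and held islands of both lists (shared regions). Of the 1671, 1068 were split in WT and unbroken in MT, and 603 were split in MT and unbroken in WT. The regions were thus selected on the positions and numbers of islands, which were called from the ChIP and input reads. All values of the islands, the reads included, are therefore a description without a test.

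The MT mouse was SIRT1 KO (Sirt1-/-, a whole-body targeted deletion) and the WT mouse was wild type, both 3 months old and of a mixed 129/FVB/Black Swiss background. By the labels and the paper, livers were taken in the morning, the mutant mice of the experiments that include this ChIP-Seq were males, and few Sirt1-/- mice reach adulthood, so the MT mouse is one of the survivors. Each mouse gave 1 ChIP library with an anti-H4K16ac antibody and 1 input library (chromatin sequenced without immunoprecipitation), 4 libraries in all. With 1 mouse per genotype there was no replicate check, no test between genotypes was run, and a difference by genotype cannot be told apart from one between 2 mice or 2 ChIP reactions.

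H4K16ac is the acetyl group on lysine 16 of histone H4. It neutralises a charge on the histone tail that helps nucleosomes to pack together, it is placed mainly by the acetyltransferase MOF (KAT8), and SIRT1, an NAD+-dependent deacetylase, is among the enzymes that remove it. The mark is found at active promoters and along transcribed genes, often as broad stretches and not as narrow peaks, which is why it is read as islands. An island is a run of 200 bp windows with more reads than a random background, joined over stretches of up to 400 bp without such windows and kept where the ChIP reads exceed the scaled input at a false discovery rate of 0.001. The shortest gap that can separate islands of one list is therefore 600 bp.

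Island depth was 2916128 ChIP and 1347113 input reads over 28377 MT islands, with 2264125 and 984817 over 26227 WT islands. Reads were scaled for depth by an MT over WT ratio of 1.05 for the ChIP and 1.09 for the input libraries, which sets the input density of all shared regions equal. Positions are in mm8, the build in the submitters' processing notes. No annotation of that build was used, so no region was assigned to a gene, and neither the Sirt1 locus nor liver marker genes were analysed here. In whole liver, fewer acetylated cells and less acetylation per cell cannot be told apart.

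Regions among the 5 with the most ChIP reads, the most pieces or the longest gap in each direction show the range of the pattern. On chromosome 6, from 114855801 to 114865200, the MT list had 1 island of 9400 bp with 533 ChIP reads and 148 input reads. The WT list had a piece of 5400 bp with 361 ChIP and 98 input reads, then a gap of 800 bp and a piece of 1000 bp with 39 ChIP and 17 input reads. The MT island began at the same base as the first WT piece and ran on past the second. ChIP density, the reads per kb of island, was 56.7 for MT and 62.5 for WT, a scaled log2 MT over WT of -0.21 (exact 95% interval -0.40 to -0.015, counting error only).

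On chromosome 4, from 144543001 to 144549000, a single MT island with 186 ChIP and 97 input reads met 4 WT pieces, which held 38, 39, 30 and 41 ChIP reads over 12, 19, 10 and 9 input reads. The gaps between them were 600, 1000 and 600 bp. Only 1 other region had 4 pieces, on chromosome 2 from 143965401 to 143973800, with 208 ChIP reads in MT and 209 summed over its WT pieces, and it was also split in WT. The longest gap lay on chromosome 4 from 99716601 to 99725400, where WT pieces of 36 and 63 ChIP reads stood 6600 bp apart inside an MT island of 301 ChIP and 157 input reads. The WT list gives no reads for the stretch inside that gap.

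The reverse pattern was of the same kind. On chromosome 7, from 65791001 to 65799400, WT had 1 island of 8400 bp with 377 ChIP and 123 input reads, and MT had pieces of 5600 and 2000 bp with 354 and 73 ChIP reads over 85 and 42 input reads. The outer ends were identical in both lists and the gap was 800 bp. The summed MT pieces held 427 ChIP reads, more than the unbroken WT island, and ChIP density was 56.2 for MT and 44.9 for WT (scaled log2 0.26, exact 95% interval 0.055 to 0.46). On chromosome 13, from 81807401 to 81815400, MT pieces of 126, 145 and 48 ChIP reads faced a WT island of 295, with both gaps at 600 bp. The longest gap in this direction was 5800 bp, on chromosome 16 from 97501601 to 97510800, between MT pieces of 62 and 45 ChIP reads at either end of a WT island of 244.

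**Figure D1:**
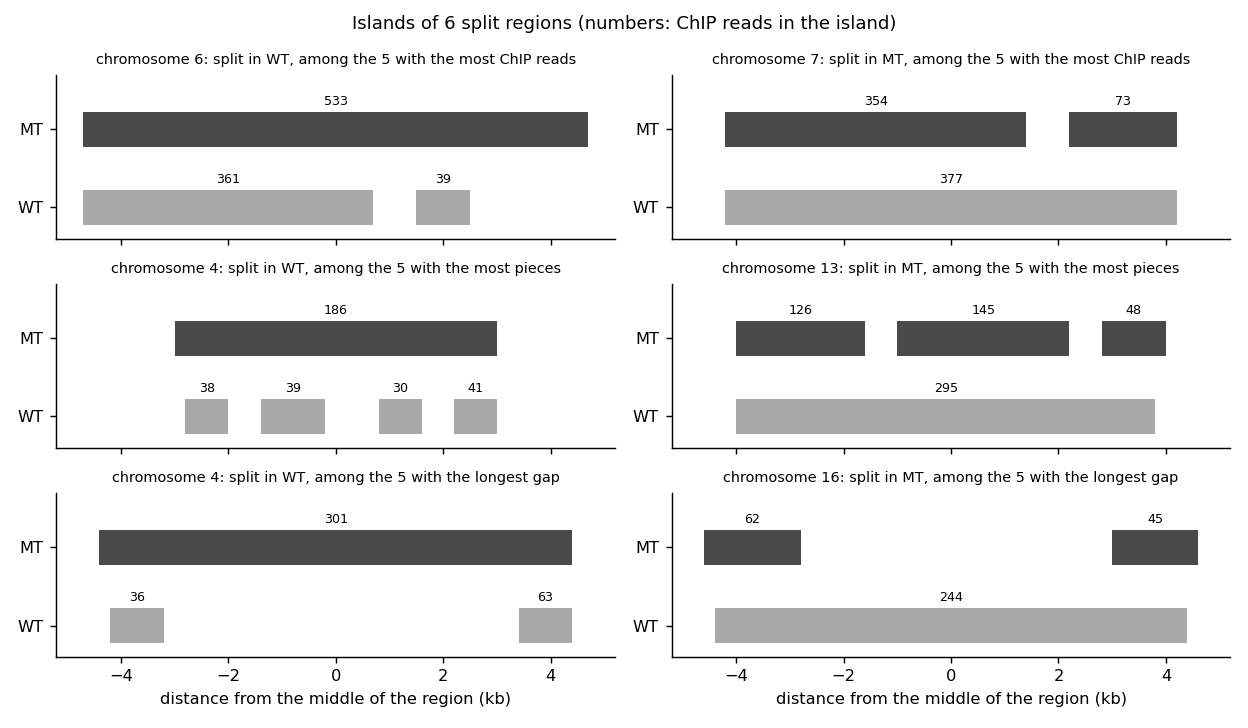
Islands of 6 split regions, drawn to scale along the distance from the middle of the region in kb, with MT above WT in each panel and the ChIP reads of each island printed over it. The left column holds regions split in WT and the right column regions split in MT: pieces of 361 and 39 reads face an MT island of 533 on chromosome 6, and pieces of 354 and 73 face a WT island of 377 on chromosome 7.

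Splits in WT were the more frequent. They made up 63.9% of the 1671 regions (95% Wilson interval 61.6 to 66.2%), a ratio of 1.77 to splits in MT (exact 95% interval 1.6 to 1.96). All intervals cover counting error only. Of the 13754 shared regions under the span limit, 7.77% were split in WT and 4.38% in MT, beside 9.46% and 5.08% of all 14719 shared regions of any span. A further 183 regions under the limit were split in both lists and are not counted here. Splits in WT outnumbered splits in MT on 19 of 19 autosomes, with ratios from 1.3 on chromosome 2 to 2.43 on chromosome 7. The share of shared regions that were split in either direction lay between 10.7% on chromosome 12 and 14.1% on chromosome 14. The X chromosome held 1 such region among 77 shared ones (1.3%, 95% Wilson interval 0.23 to 7.0%), against 12.2% over the autosomes. Shared regions on X had a median span of 2800 bp and a median of 66 MT and 64 WT ChIP reads, where the autosomes had median spans of 3400 to 3800 bp and medians of 89 to 104 and of 75 to 85 reads, and the part of span and reads in the X value was not tested. The deeper MT libraries and the longer MT islands (median 2400 bp, against 2200 bp in WT) move with this direction, and their part in it was not tested.

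Longer regions were split more often. Among shared regions of up to 2000 bp, 2 of 2375 were split in WT and 1 in MT. Among those over 9000 bp, 31.4% of 271 were split in WT (26.1 to 37.1%) and 14.8% in MT (11.0 to 19.5%). The ratio of the directions lay between 1.54 and 2.13 over all bins of span. The median span was 6200 bp for regions split in WT and 6000 bp for those split in MT, where shared regions with 1 island of each list had a median of 3200 bp. At the limit itself, the longest regions inside it spanned 9800 bp, such as the region on chromosome 7 from 73485001 to 73494800 with 451 MT and 421 WT ChIP reads, split in WT, and the region on chromosome 5 from 120769201 to 120779000 with 403 and 325, split in MT. The first ones left out spanned 10000 bp, with 602 MT and 374 WT ChIP reads on chromosome 11 from 117642001 to 117652000, split in WT, and 417 and 383 on chromosome 5 from 122571601 to 122581600, split in MT.

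**Figure D2:**
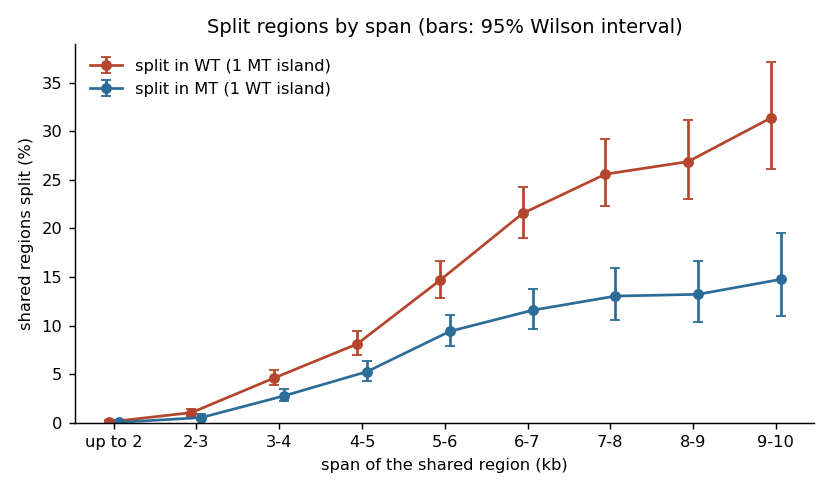
Share of shared regions (y axis, percent) that were split in WT (red) or in MT (blue) by the span of the region (x axis, kb), with 95% Wilson intervals as bars. The shares run from 0.0842% and 0.0421% at up to 2 kb to 31.4% and 14.8% above 9 kb, and the red points lie above the blue ones in every bin.

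Most regions were split once and by little. Exactly 2 pieces were found in 1015 of 1068 regions split in WT and in 574 of 603 split in MT, 3 pieces in 51 and 29, and 4 pieces in 2 and 0. All gaps of a region were at the shortest possible length of 600 bp in 51.3% of the regions split in WT (48.3 to 54.3%) and in 60.4% of those split in MT (56.4 to 64.2%), so that 1 further window over the background would have joined the pieces. With gaps of 800 bp included these shares were 73.8% and 82.6%. Long gaps were more frequent in WT: a gap of 1400 bp or more, the least that could hide an unlisted island with a 600 bp stretch on either side, was present in 173 regions split in WT (16.2%, 14.1 to 18.5%) and in 54 split in MT (8.96%, 6.93 to 11.5%). The rule places a piece on either side of every gap, so a gap cannot lie at the edge of the unbroken island. The middle of the longest gap fell within the central 50% of the unbroken island in 81.6% and 79.8% of regions, and the longest piece held a median of 62.6% and 63.6% of the summed piece length.

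**Figure D3:**
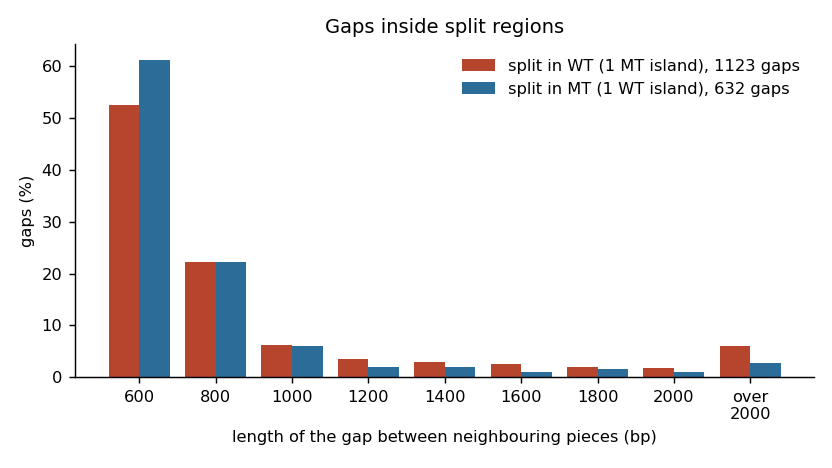
Length of the gaps between neighbouring pieces (x axis, bp) as a percent of all gaps (y axis), for 1123 gaps in regions split in WT (red) and 632 in regions split in MT (blue). The bars at 600 bp reach 52.5% and 61.2%, those at 800 bp 22.3% and 22.2%.

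The outer ends of the domains differed between the directions. In regions split in WT, the stretch from the first to the last piece and the unbroken MT island had the same median length of 5400 bp, with the stretch the longer in 42.3% of regions and the shorter in 45.7%. In regions split in MT, the median was 5600 bp for the MT pieces with their gaps and 4600 bp for the unbroken WT island, and the MT stretch was the longer in 64.3% and the shorter in 25.9%. The pieces lay wholly inside the unbroken island in 458 of the regions split in WT (42.9%) and in 151 of those split in MT. MT pieces thus often reached beyond a WT island that was continuous inside them. Without gaps, MT islands covered 5.94 Mb and WT islands 4.84 Mb of the regions split in WT, and both covered 2.95 Mb of those split in MT.

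The pieces were about as enriched as islands in general, whose median fold over input was 2.02 for the MT and 2.08 for the WT list. The median of the authors' fold over input was 2.11 for unbroken MT islands and 2.22 for their WT pieces, and 2.10 for unbroken WT islands and 2.20 for their MT pieces. The fold of the unbroken island lay between the folds of its pieces in 430 regions split in WT, below all of them in 427 and above all in 211, and the numbers in regions split in MT were 259, 235 and 109. The weakest piece of a region had a median of 52 ChIP and 23 input reads in WT and of 57 and 27 in MT. Its false discovery rate was above 1e-04 in 28.3% of the regions split in WT and in 26.7% of those split in MT, so these pieces stood near the threshold at which islands were kept. The unbroken islands also reached up to the threshold, but 72.3% of those in MT and 65.0% of those in WT had a rate under 1e-10, and the median false discovery rate was 9.34e-18 for MT islands and 2.74e-14 for WT islands.

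Both lists gave the same outer ends in 85 regions split in WT and 40 split in MT. There the unbroken island covered the pieces and the gaps between them. The split list gives no reads for the gaps, so the reads were not counted over the same stretch. In the 85 regions the unbroken MT islands held 16822 ChIP reads and the WT pieces 14575 after scaling, a ratio of 1.15 ± 0.013 (counting SE), while the MT islands covered 1.19 times the length. The input ratio was 1.18 ± 0.022. Spread over the 72.4 kb of gaps, the MT reads beyond those of the WT pieces came to 31.0 ± 2.5 per kb for ChIP, against 38.9 ± 0.33 in the pieces. The input gave 14.1 ± 1.6 per kb of gap, against 15.4 ± 0.21 in the pieces. These values are not densities of the gaps, since any difference between the genotypes within the pieces enters them. The errors cover counting only.

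In the 40 regions split in MT, the unbroken WT islands held 6449 ChIP reads and the MT pieces 6219 after scaling, a ratio of 1.04 ± 0.018 over 1.23 times the length. The input ratio was 1.18 ± 0.033. The WT reads beyond those of the MT pieces came to 6.25 ± 3.0 per kb of gap for ChIP and 11.3 ± 1.9 for input. These too are not densities of the gaps. At the reported scaling, the unbroken genotype had more ChIP reads in 73 of the 85 regions and in 27 of the 40. For input the numbers were 69 and 33. The rule favours this, since only the unbroken island counts the reads of the gaps. The ChIP ratios rest on the scaling of the libraries: without scaling they were 1.21 where WT was split and 0.991 where MT was split, and at equal ChIP totals over all islands they were 0.938 and 1.28, which turns their order. The ChIP reads beyond the pieces, per kb of gap, were -1.60 without scaling and 37.9 at equal totals where MT was split. Their sign is thus not settled by the counting error alone. Where WT was split they were 39.99 and -15.4.

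**Figure D4:**
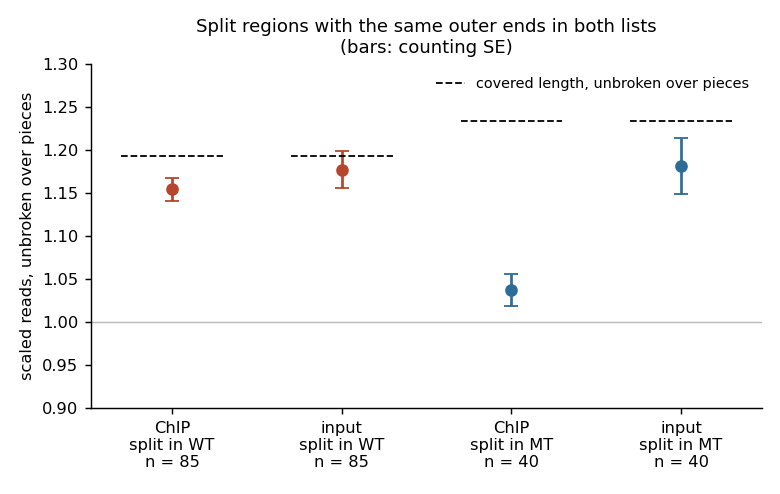
Scaled reads of the unbroken island over those of the pieces (y axis) for regions with the same outer ends in both lists, for ChIP and input, 85 regions split in WT (red) and 40 split in MT (blue), with the counting SE as bars and the ratio of covered lengths as dashed lines. The ChIP ratio is 1.15 in red and 1.04 in blue, while the input ratio is 1.18 in both and the length ratios are 1.19 and 1.23, and at equal ChIP totals over all islands the ChIP ratios are 0.938 and 1.28 (not drawn).

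Over all 1671 regions, reads per covered kb were by the median higher in whichever genotype was split, at the reported scaling. The pieces leave out the gaps, which the unbroken island covers, and the split list gives no reads for them. The pieces lay wholly inside the unbroken island in 458 of 1068 regions split in WT and in 151 of 603 split in MT. In the others the stretches covered also differed at the outer ends. The part of the rule in these densities was not tested. In regions split in WT the ChIP reads ranged from 36 to 533 in MT (median 178.5) and from 52 to 421 in WT (median 143). The median log2 MT over WT of reads per covered kb was -0.10 and 32.5% were higher in MT. In regions split in MT the ChIP reads ranged from 58 to 480 in MT (median 162) and from 33 to 495 in WT (median 144), the median log2 was 0.12 and 67.5% were higher in MT. Beside these, shared regions with 1 island of each list had a median of -0.011 with 48.6% higher in MT. Between spans of 4800 and 7600 bp, the middle of the split regions, the medians were -0.093, 0.090 and -0.012 for splits in WT, splits in MT and 1 island of each. Scaled to equal ChIP totals over all islands, the value for splits in MT was -0.18, so its sign rests on the scaling.

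Large differences were few. A ChIP density at least 1.5 times higher in MT was found in 1 region split in WT and 12 split in MT (0.0936% and 1.99%), against 2.89% of all shared regions. A density at least 1.5 times higher in WT was found in 24 and 1 (2.25% and 0.166%), against 4.05%. All 4 shares lie below those of all shared regions, which are shorter and hold fewer reads. The spread of the log2 value was 0.23 (SD over regions) in splits in WT and 0.22 in splits in MT, with a median counting SD of 0.16 and 0.17.

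The largest difference in favour of WT among regions with at least 50 ChIP reads in each list was on chromosome 19 from 41453601 to 41456800, where an MT island of 52 ChIP and 27 input reads met WT pieces of 60 and 33 ChIP reads over 13 and 11 input reads, a log2 of -1.02 (exact 95% interval -1.54 to -0.51). The WT pieces there were the denser ones, the direction of the median in regions split in WT. The largest in favour of MT was on chromosome 4 from 154407601 to 154413000, split in MT, where pieces of 251 and 58 ChIP reads met a WT island of 181, a log2 of 0.88 (0.61 to 1.15). The outer ends were identical in both lists and the MT and WT input reads were 76 and 90. Among regions split in WT, the highest value was on chromosome 19 from 10722001 to 10728400, with 328 ChIP reads in MT and 97 and 70 in the WT pieces (0.69, 0.41 to 0.96). Among regions split in MT, the lowest was on chromosome 13 from 110621201 to 110625400, with 43 and 44 ChIP reads in the MT pieces and 169 in WT (-0.63, -1.02 to -0.25). In these last 2 regions the genotype with the unbroken island was the one with more reads on either scale.

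Counted per region, without dividing by length, the direction rested on the scaling. This measure counts the reads of the gaps for the unbroken genotype only, which favours that genotype. The median log2 was 0.22 with 71.3% of regions higher in MT where WT was split, and 0.063 with 57.5% where MT was split, and at equal ChIP totals over all islands the medians were -0.084 and -0.24. Shared regions with 1 island of each list had a median of 0.15 on the reported scale with 62.1% higher in MT, between the 2 values. Reads per region at least 1.5 times higher in MT were found in 187 regions split in WT and 95 split in MT (17.5% and 15.8%, against 22.8% of all shared regions), and at least 1.5 times higher in WT in 65 and 27 (6.09% and 4.48%, against 9.14%).

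The input moved in the same direction as the ChIP reads per covered kb, by less. Its median log2 MT over WT was -0.030 in regions split in WT and 0.045 in regions split in MT, with a median counting SD of 0.25 and 0.26 for a single region. Input at least 1.5 times higher in MT was found in 29 and 21 regions (2.72% and 3.48%, against 5.50% of all shared regions) and at least 1.5 times higher in WT in 25 and 9 (2.34% and 1.49%, against 4.87%). The part of the input in the splits was not tested.

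**Figure D5:**
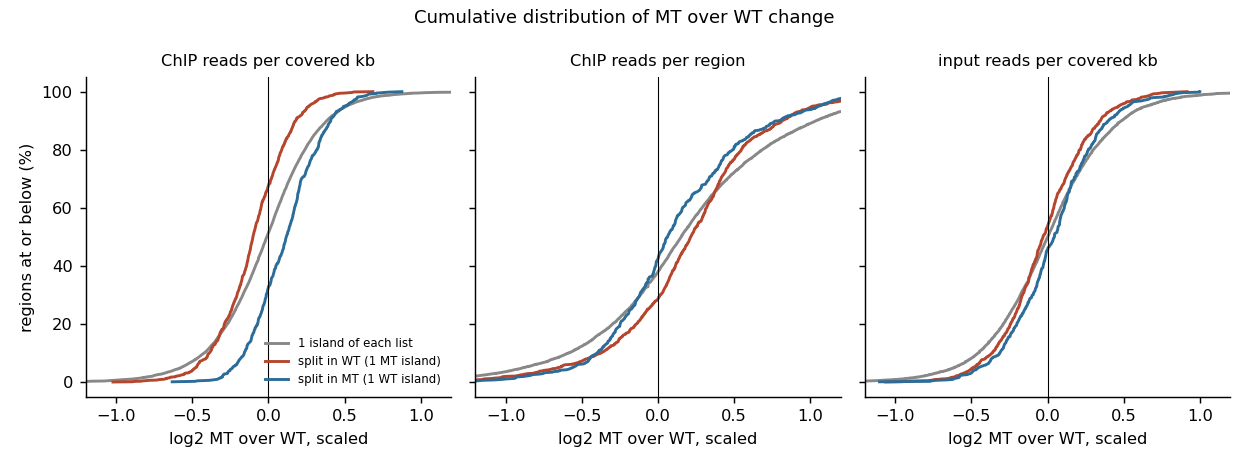
Cumulative share of regions (y axis, percent) by scaled log2 MT over WT (x axis) for ChIP reads per covered kb, ChIP reads per region and input reads per covered kb, in regions split in WT (red), split in MT (blue) and with 1 island of each list (grey), all under 10 kb. Values beyond the ends of the x axis are not drawn. In the left panel the median lies to the left of grey for red and to the right for blue (-0.10 and 0.12, with -0.011 for grey, where equal ChIP totals give -0.40 and -0.18 for red and blue), in the middle panel the order of red and blue is turned at the median (0.22 and 0.063, or -0.084 and -0.24 at equal ChIP totals over all islands), and in the right panel the medians are -0.030 and 0.045.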

How the data were processed

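ChIP-Seq of H4K16ac in liver of 1 MT and 1 WT mouse, with an input library each, was analysed. The authors deposited 1 list of islands per mouse, made per the labels with Bowtie 0.12.7, SICER 1.03 and mm8, after removal of duplicate reads, with 200 bp windows and a joined gap of 400 bp. The deposited counts are ChIP and input reads per island. The deposited fold is a ratio, ChIP reads over input reads with library sizes taken into account, and the deposited p-value and false discovery rate compare the same reads.

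The members and lists were chosen with earlier results of these data known. Islands were merged and counted in Python 3.11.15 with numpy 2.4.6, pandas 2.3.3 and scipy 1.17.1, and figures drawn with matplotlib 3.10.9. Merging, counting and scaling were checked on simulated lists. The simulated islands were placed independently of their reads, so the check does not cover the calling of islands from reads. Regions that only touched were not merged. Named regions, per direction, were the 5 with the most ChIP reads, most pieces or longest gap, the 3 highest and 3 lowest in ChIP density change with at least 50 ChIP reads in each list, and those nearest the span limit, of which some are printed. No test between genotypes was possible. Library sizes were compared through the input density of shared regions and the constant linking fold and reads in each list, and were held fixed in alternatives that did not change the scaling. An alternative value was called moved when it left the 95% interval of the reported one over regions (order statistics for medians, Wilson for shares, exact for the ratio of directions, counting error for reads over the same outer ends) or, for counts, differed by over 1.5 times. Regions are not replicates, so these intervals do not measure variation between mice.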

Additional observations from a re-analysis of the deposited data

How the results depend on the processing

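Depth limits single regions, and island lists give no reads between islands. No paired analysis was possible because each genotype had 1 library of each kind. Of 74 values under alternatives, 31 stayed within the range of the reported one, 33 moved and 10 reversed. The cause of changes was not tested beyond an alternative's construction. More regions were split in WT than in MT in all 10 alternatives run on that ratio. These only filtered, joined or limited the same island lists, and none equalised depth or called islands anew.

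With islands limited to a false discovery rate of 1e-05, 566 regions were split in WT and 360 in MT (ratio 1.57), and 64.7% of the latter had gaps of 600 bp alone. At a fold of at least 2 the counts were 399 and 228, and the median log2 of ChIP density for splits in WT was -0.085. Under a span of 5000 bp the counts were 294 and 174, shares with gaps of 600 bp alone 57.1% and 71.8%, and medians -0.16 and 0.19, while under 20000 bp the median for splits in WT was -0.079. Joining islands over 600 bp left 633 and 306 (ratio 2.07), and over 1000 bp, chosen after seeing the data, 362 and 143 (2.53). With at least 50% of each piece inside the unbroken island the counts were 841 and 403 (ratio 2.09).

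The medians for splits in WT and in MT were -0.036 and 0.18 without scaling, -0.40 and -0.18 at equal totals over all islands, and -0.19 and 0.20 with scaled input subtracted. Reads per region gave 0.22 and 0.063. An alternative picked with the data in view, reads per region where outer ends were the same, gave 0.19 and -0.11.

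Other ChIP scalings of the per-region and same-ends values were also added after the data had been seen. For splits in WT and in MT, the median log2 of reads per region was 0.28 and 0.13 without scaling and -0.084 and -0.24 at equal totals. The reads of unbroken islands over pieces were 1.21 and 0.991, then 0.938 and 1.28. The reads beyond the pieces per kb of gap were 39.99 and -1.60, then -15.4 and 37.9.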

Other observations

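The same pattern continued above the span limit, with 324 regions of 10000 bp or more split in WT and 144 split in MT, a ratio of 2.25. Few split regions had another one nearby. Another region split in WT was within 10000 bp of 8.71% of the regions split in WT (7.16 to 10.6%) and of 9.45% of those split in MT (7.37 to 12.1%), beside 6.18% of the regions with 1 island of each list (5.76 to 6.62%), which are shorter and were not matched for span. Another region split in MT was within 10000 bp of 5.52%, 5.14% and 3.30% in the same order. Among regions with a span of 4800 to 7600 bp, the nearest other region of either list was a median of 1600 bp away where WT was split, 1200 bp where MT was split and 2000 bp where each list had 1 island. On chromosome 13 a region split in MT from 48558201 to 48567200, with 419 MT and 370 WT ChIP reads, was followed by another from 48567801 to 48573600, with 111 and 166, so that a gap of 600 bp in both lists separated them.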
